A study of Mus musculus with 23 samples.

Results

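Open chromatin at Cdkn1a on mouse chromosome 17 and at the neighbouring Cdkn2a and Cdkn2b on chromosome 4 was compared over the epithelium of duodenum and colon at 3 ages. Peaks of the 23 libraries were taken in 2 windows of the mm9 build, chr17:29190000-29270000 around Cdkn1a and chr4:88890000-89000000 around Cdkn2a and Cdkn2b, and overlapping peaks were merged. This gave 16 regions of 149024 in the whole catalogue, 13 of them in the Cdkn1a window and 3 in the Cdkn2a and Cdkn2b window. A peak was called in at least 2 libraries in 11 of the 16, which are 11 of the 85469 such regions of the series. In order of position the regions are called A to M in the Cdkn1a window and N to P in the Cdkn2a and Cdkn2b window.

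The assay was ATAC-seq, in which a transposase inserts sequencing adapters into DNA that is open. Juvenile duodenal epithelium was taken whole at 12 days. Adult duodenum of 90 days and geriatric duodenum of 21 months were divided over a strainer into villi, which carry differentiated cells, and crypts, which hold dividing cells. Juvenile colon of 15 days was pooled from 6 animals per library, and adult colon of 90 days from 2 animals. Geriatric proximal colon of 21 months was also pooled from 2 animals, and the labels of the younger colon groups name no part of the colon. There were 3 libraries in each of the 8 groups except geriatric proximal colon, which had 2, numbered 1 and 3, since the submitters dropped the other for DNA quality. The series text counts 9 mice in all, fewer than juvenile colon alone implies with 6 animals in each of 3 libraries. Whether that count covers the pools is not stated. Libraries of 1 group, or of different tissues at 1 age, may therefore share animals. All tests take libraries as independent, also those that join villus and crypt. The labels used here give no strain, sex or genotype. Juvenile and later duodenum therefore differ in fraction as well as in age, and geriatric and adult colon in part as well as in age. The labelled cell types were not checked against marker genes, because no annotation of the mm9 build was at hand.

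All 3 genes encode inhibitors of cyclin-dependent kinases, the enzymes that drive cells through division. Cdkn1a encodes p21, which is switched on by p53 after DNA damage and also as cells leave the cycle and differentiate. Cdkn2a encodes p16Ink4a and, from an upstream first exon and in another reading frame, p19Arf, which stabilises p53. Cdkn2b encodes p15Ink4b, which is induced by TGF-beta. The Cdkn2a and Cdkn2b locus is held silent by Polycomb proteins in young proliferating cells, and transcripts of p16Ink4a are a common marker of senescent cells and of ageing tissue. In the intestine, cells divide in the crypt and stop dividing as they move onto the villus.

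The stretches before the annotated starts of the 3 genes are shown because they are the promoter sequences of the genes after which the windows are named. Each is the 250 bases before a start in RefSeq's table of the GRCm38.p6 build, from 5′ to 3′ on the strand of the gene. The peaks are in mm9, so none of the regions A to P was assigned to a start, an exon or an intron. Capitals mark GC boxes (GGGCGG on either strand), which bind Sp1, and matches to the p53 half-site on either strand. The upstream start of Cdkn2a is that of p19Arf and the downstream start that of p16Ink4a.
Cdkn1a upstream start, chr17:29090729-29090978, plus strand: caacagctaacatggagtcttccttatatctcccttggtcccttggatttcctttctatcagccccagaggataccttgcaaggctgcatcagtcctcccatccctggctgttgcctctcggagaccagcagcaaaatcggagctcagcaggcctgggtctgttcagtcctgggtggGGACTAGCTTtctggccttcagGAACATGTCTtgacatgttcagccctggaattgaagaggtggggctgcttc
Cdkn1a downstream start, chr17:29093519-29093768, plus strand: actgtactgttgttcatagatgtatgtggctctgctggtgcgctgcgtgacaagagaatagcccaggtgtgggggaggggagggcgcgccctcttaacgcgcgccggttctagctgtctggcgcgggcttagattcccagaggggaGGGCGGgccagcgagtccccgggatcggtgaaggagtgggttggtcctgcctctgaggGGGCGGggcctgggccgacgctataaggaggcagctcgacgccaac
Cdkn2a upstream start, chr4:89294620-89294869, minus strand: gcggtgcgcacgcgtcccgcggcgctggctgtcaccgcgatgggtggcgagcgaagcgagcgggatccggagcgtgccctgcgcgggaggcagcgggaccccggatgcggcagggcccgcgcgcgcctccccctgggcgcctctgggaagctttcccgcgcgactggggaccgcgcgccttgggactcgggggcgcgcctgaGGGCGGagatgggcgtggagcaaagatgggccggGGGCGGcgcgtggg
Cdkn2a downstream start, chr4:89282193-89282442, minus strand: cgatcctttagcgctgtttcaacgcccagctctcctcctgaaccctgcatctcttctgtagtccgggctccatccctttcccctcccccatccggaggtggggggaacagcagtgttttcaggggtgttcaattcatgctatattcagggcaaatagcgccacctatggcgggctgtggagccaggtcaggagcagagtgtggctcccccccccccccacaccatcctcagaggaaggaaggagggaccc
Cdkn2b start, chr4:89311033-89311282, minus strand: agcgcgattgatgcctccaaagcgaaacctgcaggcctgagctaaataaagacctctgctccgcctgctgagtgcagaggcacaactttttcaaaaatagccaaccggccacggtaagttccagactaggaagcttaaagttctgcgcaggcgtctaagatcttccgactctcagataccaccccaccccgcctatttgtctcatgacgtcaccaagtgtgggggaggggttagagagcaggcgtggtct

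The Cdkn1a starts differed in composition. The stretch before the upstream start held 2 matches to the p53 half-site, 2 CpG dinucleotides and no GC box, whereas the one before the downstream start held 2 GC boxes, 19 CpG dinucleotides and no p53 half-site. A p53 half-site occurs in 7.13% and a GC box in 32.7% of the 32851 such stretches of the table. The stretch before the upstream start of Cdkn2a was the richest in CpG of these 5, with 40 dinucleotides and 78.4% G and C, against a median of 6 dinucleotides over the table. It held 2 GC boxes. The downstream start of Cdkn2a had 7 CpG dinucleotides and the Cdkn2b start 12, and neither stretch held a GC box. None of the 5 held the AP-1 motif TGANTCA or the TATA motif TATAAA, found on either strand in 6.75% and 12.4% of the stretches. Such matches describe letters and not bound sites.

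The libraries differed in depth and in how far reads were gathered into peaks. Each library kept 14.4 to 47.9 M reads for peak calling, and the lists held 11355 to 60519 peaks. The 23 libraries had 102 peaks in the Cdkn1a window and 61 in the Cdkn2a and Cdkn2b window. Levels are given as pileup, the number of extended reads stacked at the peak summit, per 1000000 kept reads (RPM). The extension ran from 68 bp in adult villus 3 to 210 bp in geriatric villus 1, and RPM is not corrected for it. Over the 5226 regions with a peak in every library, the median log2 difference of this level was −1.73 for geriatric proximal against adult colon, 1.00 for adult against juvenile colon, 0.37 for duodenum against colon and −0.40 for later against juvenile duodenum. It was −0.09 for villus against crypt and −0.04 for geriatric against adult duodenum. Because these shifts involve all regions, levels are also given as a ratio to the median pileup of the 5226 shared regions in the same library. Geriatric proximal colon 3 and adult villus 3 stood apart by a low shared-region median, 0.471 and 0.650 RPM, against 0.919 to 2.52 in the other libraries. Where no peak was called, the level lies under the calling limit of that library and is not 0.

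**Figure D1:**
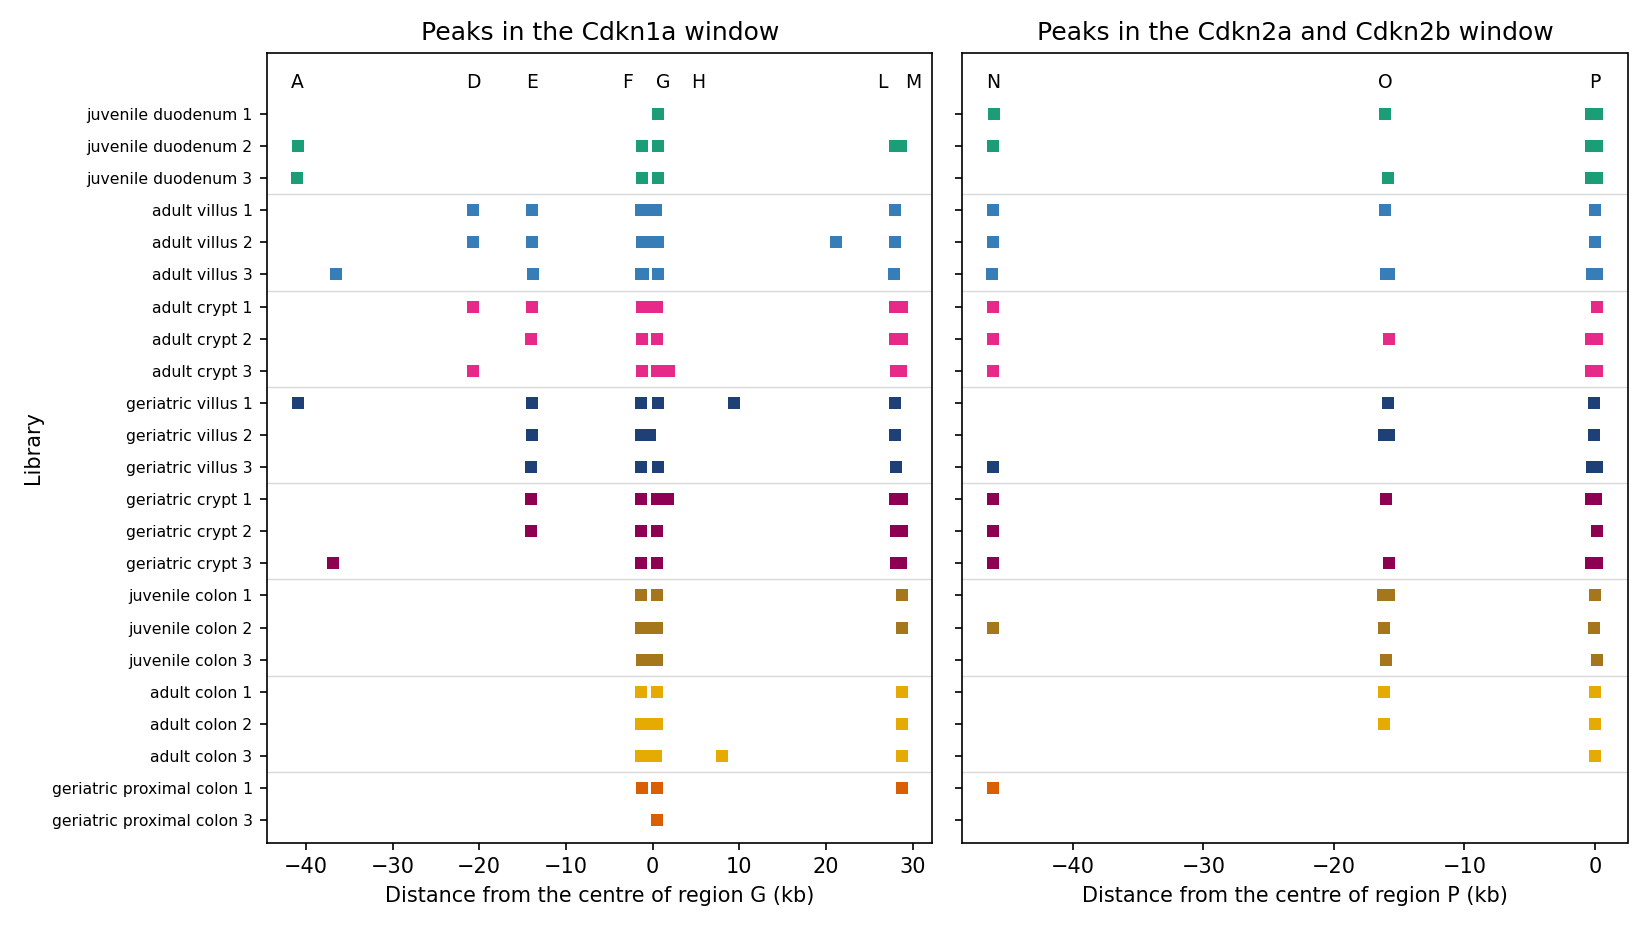
Peaks called in each of the 23 libraries (rows) in the Cdkn1a window (left) and the Cdkn2a and Cdkn2b window (right). A square marks the centre of a peak as its distance in kb from the centre of region G or region P, colour marks the group, and letters mark the 11 regions with a peak in at least 2 libraries. Region G has a peak in all 23 libraries, region P in none of the 2 geriatric proximal colon libraries, and regions E and L in none of the 8 colon libraries.

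In the Cdkn1a window, 2 regions next to each other were open in nearly every library. Region G (chr17:29231185-29232719) was the only one of the 16 with a peak in all 23 libraries, and region F (chr17:29230469-29230892) had one in 21. Region F lacked a peak in juvenile duodenum 1 and geriatric proximal colon 3. The peak lists counted 10 to 19 peaks per group of 3 in the window, with 9 in juvenile duodenum and 4 in the 2 geriatric proximal colon libraries. RefSeq places Trp53cor1, the gene of the p53-induced lincRNA-p21, before Cdkn1a and Rab44, a member of the Rab GTPase family, after it.

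Region G had 0.604, 0.741 and 0.659 RPM in juvenile duodenum. Adult villus had 1.53, 1.43 and 0.547 RPM, adult crypt 1.18, 1.31 and 0.921, geriatric villus 1.72, 0.958 and 1.01, and geriatric crypt 1.18, 0.714 and 0.717. Juvenile colon had 0.897, 0.781 and 0.710 RPM, adult colon 1.07, 1.80 and 1.70, and geriatric proximal colon 0.682 and 0.50. On this scale, juvenile duodenum overlapped later duodenum through adult villus 3 and both lower geriatric crypt libraries, and all 3 adult colon libraries lay above both geriatric ones.

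Relative to the shared regions, region G was lowest in juvenile duodenum. The 12 adult and geriatric duodenum libraries had ratios of 0.516 to 1.03 with a median of 0.705, and the 3 juvenile duodenum libraries had 0.314, 0.395 and 0.306. These ranges did not overlap. The log2 difference of the ratio was 1.05 ± 0.17 (SE), higher in later duodenum (limma, adjusted p = 8.3e-05), and 18.5% of the 5226 regions passed in either direction, 12.0% upwards. Leaving out each of the 15 duodenum libraries in turn in a fit to those libraries gave 0.98 to 1.17, with adjusted p of 7.1e-05 to 0.0021. In RPM the difference was 0.65 ± 0.37 (SE) and did not pass (adjusted p = 0.456), where none of the 5226 regions passed and 518 had an unadjusted p under 0.05. Fraction and age cannot be told apart in this comparison. In bulk epithelium, fewer cells with the region open and less opening per cell cannot be told apart either.

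The colon libraries did not show this difference. Adult colon had ratios at region G of 0.490, 0.716 and 0.739, and juvenile colon 0.729, 0.595 and 0.773, so that the groups overlapped. The log2 difference of the ratio was −0.12 (95% interval −0.56 to 0.32, adjusted p = 0.820). In RPM it was 0.91 ± 0.47 (SE, adjusted p = 0.0851), beside the median shift of 1.00. In a fit to the 6 colon libraries alone the adjusted p of the same difference was 2.2e-04, where 88.4% of 10790 regions passed, and region F had 0.86 (adjusted p = 4.2e-04). With villus and crypt averaged, the adult minus juvenile difference of the ratio was larger in duodenum than in colon by 1.21 ± 0.28 (SE, log2, limma contrast of both differences, adjusted p = 0.00682), and 12.4% of the 5226 regions passed this contrast. In RPM the same contrast was −0.19 ± 0.62 (SE, adjusted p = 0.779) beside a median of −1.38 over all regions. It was chosen after the values had been seen.

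**Figure D2:**
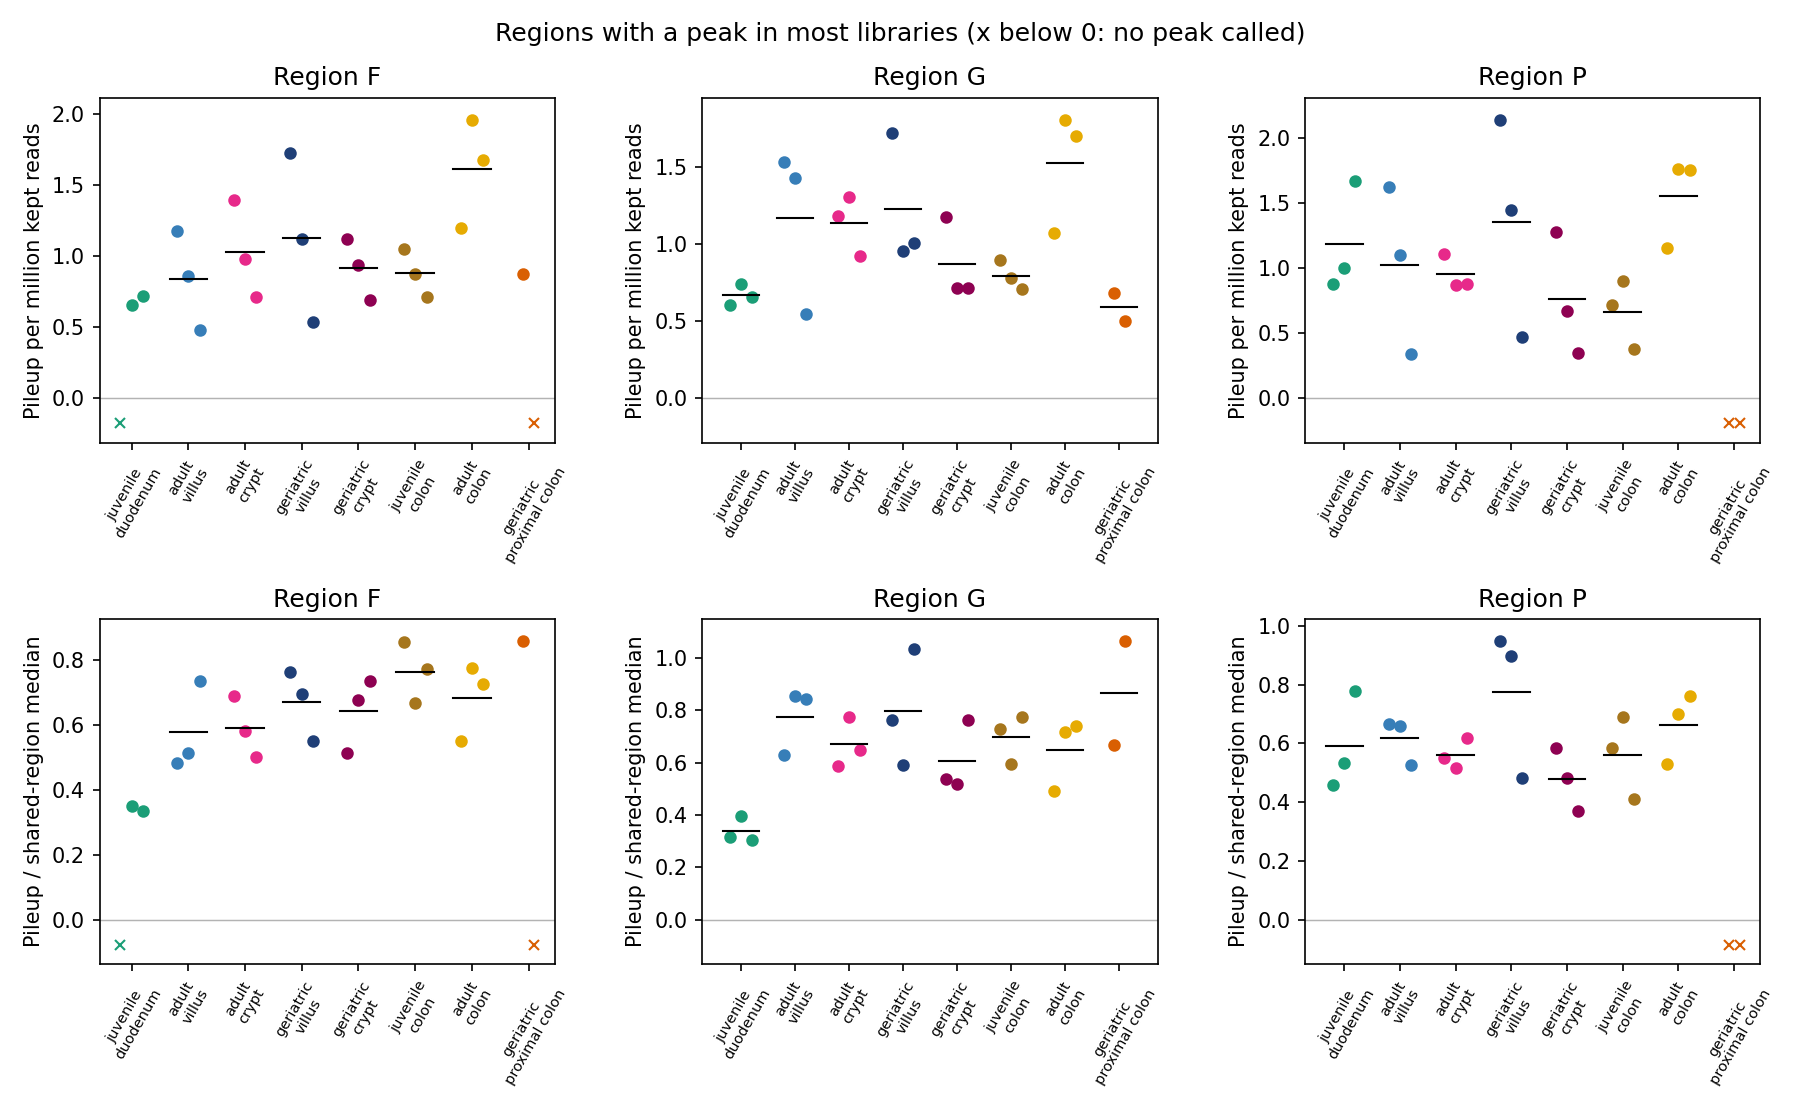
Levels at regions F, G and P by group, 1 point per library, as pileup in RPM (top) and as a ratio to the median pileup of the 5226 shared regions of the same library (bottom). Black lines are group means where every library had a peak and crosses are libraries with no peak called. The 3 juvenile duodenum libraries have ratios of 0.306 to 0.395 at region G, under the 0.516 to 1.03 of the 12 adult and geriatric duodenum libraries.

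The summits in region G fell in separate places. In 22 libraries a peak had its summit at 29232425 to 29232541, in 7 a peak had it at 29231303 to 29231472, and adult colon 2 had 1 at 29231743. Geriatric villus 2 lacked the first of these. Juvenile duodenum, geriatric crypt and geriatric proximal colon had no library with a summit in the second. With only the 22 libraries' summit part, where geriatric villus 2 has no value, the later minus juvenile difference of the ratio was 1.05 ± 0.17 (SE, log2, adjusted p = 3.1e-04).

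At region F the ratios were 0.349 and 0.333 in the 2 juvenile duodenum libraries with a peak there. The 12 adult and geriatric duodenum libraries had 0.481 to 0.763, with a median of 0.629. Juvenile colon had 0.854, 0.667 and 0.773 and adult colon 0.549, 0.776 and 0.727, and geriatric proximal colon 1 had 0.857. The juvenile duodenum values were again the lowest, and no test was run on them because 1 of the 3 libraries had no peak.

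Regions E and L were open in duodenum and not called in colon. Region L (chr17:29259557-29260159) had a peak in 13 of 15 duodenum and 0 of 8 colon libraries (Fisher's exact test, p = 9.2e-05, adjusted over 85469 regions p = 0.0027). Region E (chr17:29217774-29218213) had one in 10 of 15 duodenum and 0 of 8 colon libraries (Fisher's exact test, p = 0.00272, adjusted p = 0.0284). Over the catalogue 9.57% of regions passed this comparison, 9.32% with more peaks in duodenum and 0.253% with more in colon, and 2 of the 11 regions here passed. Colon lists were shorter than duodenum lists. With every list reduced to its 11355 strongest peaks, the length of the list of geriatric proximal colon 3, region L kept a peak in 1 of 15 duodenum libraries and region E in 0, and neither passed. With lists made equal within adult libraries alone, region L kept a peak in 3 of 3 adult villus and 3 of 3 adult crypt against 0 of 3 adult colon libraries. Neither passed where a peak had to cover 50% of the region (adjusted p = 0.402 at both), and at a −log10 q of at least 5 region L passed and region E did not (adjusted p = 0.299). The level of region G did not pass between the organs and its direction turned with the scale. Duodenum minus colon was 0.11 log2 units in RPM (95% interval −0.39 to 0.62, limma, adjusted p = 0.763) and −0.26 as a ratio (95% interval −0.50 to −0.02, adjusted p = 0.0771). In RPM, 15.9% of the 5226 regions passed as higher in duodenum and 0.0191% as higher in colon.

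At region L, adult villus had 1.53, 1.10 and 0.547 RPM, adult crypt 0.974, 0.817 and 0.879, geriatric villus 0.892, 0.793 and 0.538, and geriatric crypt 1.12, 0.536 and 0.494. All 12 adult and geriatric duodenum libraries had a peak. Of the 3 juvenile duodenum libraries only number 2 had one, at 0.523 RPM (Fisher's exact test of 12 of 12 against 1 of 3, p = 0.0286, adjusted p = 0.257). As ratios to the shared regions the 13 values were 0.279 to 0.842. The lowest ratio called anywhere was 0.125 to 0.296 in the 6 juvenile and adult colon libraries and 0.381 and 0.563 in the 2 geriatric ones.

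At region E, adult villus had 1.17, 0.736 and 0.239 RPM, geriatric villus 1.25, 0.627 and 0.437, adult crypt 0.835 and 0.599 in 2 of 3 libraries, and geriatric crypt 0.481 and 0.491 in 2 of 3. It was called in 10 of 12 later and 0 of 3 juvenile duodenum libraries (Fisher's exact test, p = 0.0220, adjusted p = 0.257). None of the 85469 regions passed the later against juvenile comparison by presence, while 10890 had an unadjusted p under 0.05, regions E and L among them. The call of region E between duodenum and colon was lost, at adjusted p of 0.0504 to 0.0552, when any 1 of 15 libraries was left out. These were all 3 adult villus and all 3 geriatric villus libraries, adult crypt 1, geriatric crypt 1 and 2, all 3 juvenile colon libraries, adult colon 1 and geriatric proximal colon 1 and 3.

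Region M (chr17:29260421-29260887), 261 bp beyond region L, was distributed otherwise. It had a peak in 0 of 6 villus and 6 of 6 crypt libraries of adult and geriatric duodenum, and in 6 of 8 colon libraries. Adult crypt had 0.696, 0.708 and 0.921 RPM, geriatric crypt 1.02, 0.491 and 0.519, juvenile colon 0.538 and 0.624 in 2 of 3, adult colon 0.727, 0.865 and 0.969, and geriatric proximal colon 0.633 in 1 of 2. Juvenile duodenum 2, the library with region L, also had region M, at 0.523 RPM. The colon has crypts and no villi.

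In the lists as deposited, region M had a peak in every crypt and no villus library at both ages. Fisher's exact test over 6 villus against 6 crypt libraries gave p = 0.00216, the smallest that this design can give, and an adjusted p of 0.0785. None of the 85469 regions passed, and 6703 had an unadjusted p under 0.05. Taken by age, 3.77% of regions had a peak in all 3 adult crypt and no adult villus library, and 4.73% in all 3 geriatric crypt and no geriatric villus library. Region M was the only one of the 11 with such a split in either pair. Villus stayed at 0 of 6 under the other settings, while crypt fell to 5 of 6 with lists of equal length, and to 4 of 6 both at a −log10 q of at least 5 and where a peak had to cover 50% of the region. Region L had a peak in all 6 villus and all 6 crypt libraries, and its log2 difference, villus minus crypt, was 0.13 ± 0.42 (SE, limma, adjusted p = 1.0). Region G had a difference of 0.20 (95% interval −0.45 to 0.86, adjusted p = 1.0), where 1 of 5226 regions passed (0.0191%) and 284 had an unadjusted p under 0.05. The libraries thus showed region L alone in 6 of 6 villus, both regions in 6 of 6 crypt and region M alone in 6 of 8 colon libraries, and the other 2 colon libraries had neither.

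**Figure D3:**
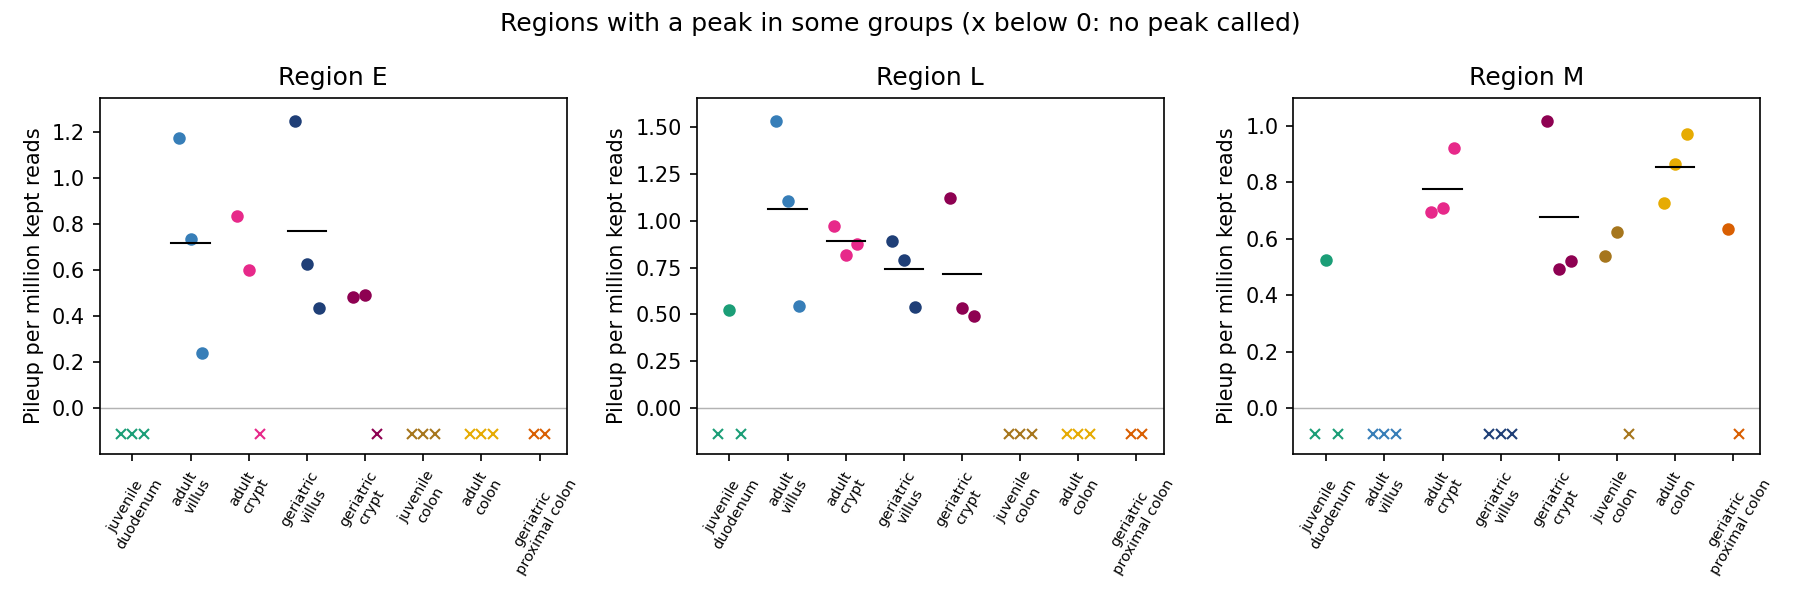
Pileup in RPM at regions E, L and M by group, 1 point per library. Black lines are group means where every library had a peak and crosses are libraries with no peak called. Regions E and L have no peak in any of 8 colon libraries, and region M has none in any of 6 villus libraries but one in all 6 crypt libraries.

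The other regions of the Cdkn1a window were called in few libraries. Region D (chr17:29211180-29211353) had a peak in adult villus 1 and 2 at 0.632 and 0.572 RPM and in adult crypt 1 and 3 at 0.417 and 0.460, and in none of 11 other duodenum or 8 colon libraries. Its count was 0 of 6 geriatric against 4 of 6 adult duodenum libraries (Fisher's exact test, p = 0.0606, adjusted p = 1.0). Region A (chr17:29190914-29191123) was called in geriatric villus 1 at 1.01 RPM and in juvenile duodenum 2 and 3 at 0.566 and 0.599 RPM. Region H (chr17:29233714-29233840) was called in geriatric crypt 1 at 0.963 RPM and in adult crypt 3 at 0.795 RPM. Regions B, C, I, J and K were called in 1 library each.

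No region of either window passed a test between geriatric and adult duodenum. By presence none of the 11 and none of the 85469 regions passed (0.0%), where region D had the smallest p and 95 of the 85469 regions had an unadjusted p under 0.05, none of them here. Region G had 1.72, 0.958 and 1.01 RPM in geriatric villus and 1.53, 1.43 and 0.547 in adult villus, and 1.18, 0.714 and 0.717 in geriatric crypt and 1.18, 1.31 and 0.921 in adult crypt. The groups overlapped in both fractions. The log2 difference, geriatric minus adult, was −0.13 (95% interval −0.78 to 0.53, limma, adjusted p = 1.0), and of the ratio −0.07 (95% interval −0.38 to 0.24). None of the 5226 regions passed (0.0%), and 3 had an unadjusted p under 0.05. The age difference of region G in villus exceeded that in crypt by 0.57 ± 0.67 (SE, log2, adjusted p = 0.959). In fits to the regions with a peak in all 12 libraries, the geriatric minus adult difference was 0.12 at region F, −0.42 at region L and −0.04 at region P, each ± 0.42 (SE, log2, adjusted p = 1.0). As ratios, region L had 0.395, 0.490 and 0.552 in geriatric villus, all under the 0.630, 0.659 and 0.842 of adult villus, while geriatric crypt, with 0.387 to 0.526, overlapped adult crypt, with 0.483 to 0.618. The difference of the ratio over both fractions was −0.36 (95% interval −0.66 to −0.07) and did not pass (limma, adjusted p = 0.625), where 0.015% of 13363 regions passed. In RPM the 95% interval at region L was −1.24 to 0.40, so the values allow any change within it, as well as none.

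The Cdkn2a and Cdkn2b window held 3 regions. Region P (chr4:88956385-88957276) had a peak in 15 of 15 duodenum and 6 of 8 colon libraries. Region N (chr4:88910569-88910850) had one in 12 of 15 duodenum and 2 of 8 colon libraries, and region O (chr4:88940353-88941204) in 9 of 15 and 5 of 8. In RefSeq's order Cdkn2a and Cdkn2b are divided by the predicted gene Gm12610 only.

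Region P had 0.879, 1.00 and 1.68 RPM in juvenile duodenum. Adult villus had 1.62, 1.10 and 0.342 RPM, adult crypt 1.11, 0.872 and 0.879, geriatric villus 2.14, 1.45 and 0.470, and geriatric crypt 1.28, 0.670 and 0.346. Juvenile colon had 0.718, 0.905 and 0.376 RPM and adult colon 1.16, 1.77 and 1.76. The duodenum groups all overlapped, and all 3 adult colon libraries lay above the juvenile ones. Neither geriatric proximal colon library had a peak.

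No difference between duodenum ages passed at region P. Later minus juvenile duodenum was −0.37 ± 0.43 (SE, log2, adjusted p = 0.743) in RPM and 0.03 (95% interval −0.36 to 0.43) as a ratio, in fits to the 12239 regions with a peak in all 15 libraries. Region G in the same fits had 1.05 as a ratio. Villus had ratios of 0.483 to 0.947 with a median of 0.663 at region P, and crypt 0.368 to 0.618 with a median of 0.534. The log2 difference of the ratio, villus minus crypt, was 0.40 ± 0.17 (SE, adjusted p = 0.0815), where 30.1% of 13363 regions passed. Adult minus juvenile colon was 1.29 ± 0.24 on the log2 RPM scale (SE, adjusted p = 3.0e-07), a rise in adult colon shared by 88.3% of the 10790 regions fitted, and 0.26 ± 0.20 as a ratio (SE, adjusted p = 0.405).

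Region P was not called in geriatric proximal colon, which rests on 2 libraries. It had a peak in 0 of 2 geriatric proximal and 3 of 3 adult colon libraries, a separation found in 7.36% of the 85469 regions. With 2 against 3 libraries Fisher's exact test cannot give a p under 0.1. Adult colon had ratios of 0.529, 0.701 and 0.761 at region P. The lowest ratio called anywhere was 0.381 in geriatric proximal colon 1 and 0.563 in geriatric proximal colon 3, so only the first of these could have shown a peak at the level of every adult colon library. Region G had 0.682 and 0.50 RPM in geriatric proximal colon against 1.07, 1.80 and 1.70 in adult colon. Its log2 difference was −1.35 ± 0.53 (SE, limma, adjusted p = 0.0138), where 87.0% of the 5226 regions passed, and as a ratio 0.40 ± 0.24 (SE, adjusted p = 0.239). The difference at region G in RPM did not pass without adult colon 2 (−1.21, limma, adjusted p = 0.0527) or without geriatric proximal colon 3 (−1.12, adjusted p = 0.149). In the fit to the colon libraries compared it passed with each of the 5 left out in turn, at adjusted p of 7.2e-05 to 0.0426. Age, part of the colon and library quality cannot be told apart here.

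The peaks of region N (14 libraries) were mostly in duodenum. Adult crypt had 0.835, 0.763 and 0.795 RPM, geriatric crypt 1.02, 0.714 and 0.371, and adult villus 0.632, 0.532 and 0.308. Juvenile duodenum had 0.604 and 0.479 in 2 of 3 libraries and geriatric villus 0.437 in 1 of 3. In colon a peak was called in juvenile colon 2 at 0.656 RPM and in geriatric proximal colon 1 at 0.536. The duodenum against colon counts gave p = 0.0228 by Fisher's exact test and 0.137 after adjustment.

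Region O had levels between 0.272 and 0.909 RPM in 9 duodenum libraries and between 0.355 and 0.489 in 5 colon libraries. It was called in all 3 juvenile colon and 2 of 3 adult colon libraries, and in neither geriatric proximal colon library. Its peaks fell in separate places, joined only by the broad peak of geriatric crypt 1. All 5 colon libraries had a peak at the place farther from region P, and juvenile colon 1 had one at both. Adult crypt 2, geriatric crypt 3, geriatric villus 1 and juvenile duodenum 3 had one at the nearer place only. The presence counts of region O join both places. A peak in all 3 juvenile colon and no geriatric proximal colon library, as at regions O and P, was found in 2.67% of regions.

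In region P the summits also fell in separate places. All 21 libraries with a peak had a summit at 88956884 to 88957077. A further summit at 88956527 to 88956592 was called in 9 libraries, all of duodenum, among them all 3 of juvenile duodenum, at 0.494, 0.523 and 0.958 RPM. This does not mean that no peak lay there in the others, since 1 broad peak spanned the whole stretch in 5 of 8 colon and 4 of 6 remaining duodenum libraries.

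**Figure D4:**
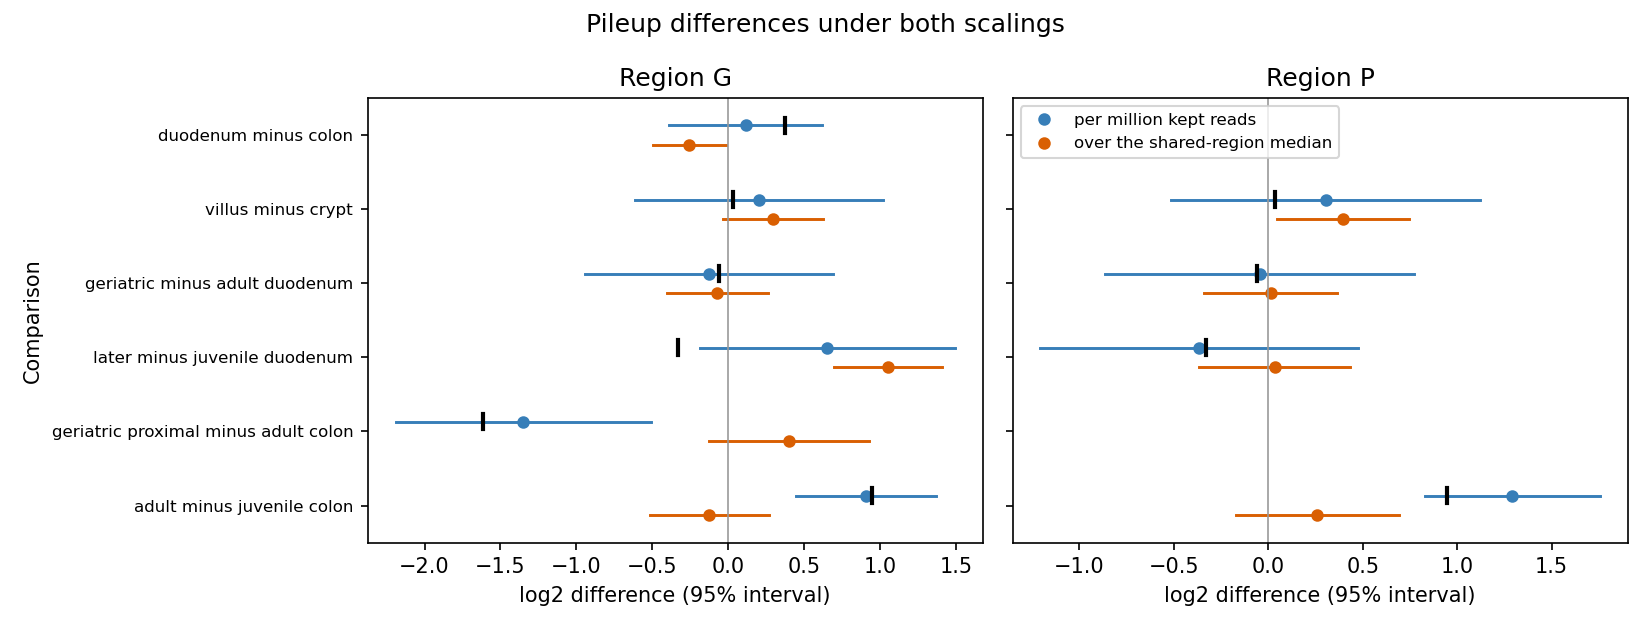
Log2 differences of pileup at regions G and P in 6 comparisons, with 95% intervals from limma fits to the regions with a peak in every library compared. Blue is in RPM, orange the ratio to the shared regions, and black ticks are the median of all regions fitted in RPM. The later minus juvenile duodenum difference of region G is 1.05 as a ratio, and region P has no value where a library lacked a peak.

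Complete separation, a peak in every library of 1 group and in none of another, was counted in 14 pairs of groups and occurred 18 times among the 11 regions. Beside region M between the fractions, regions E, L and N separated adult villus from adult colon, as did 9.97% of all regions, and region M did so in the other direction, as did 1.85%. Regions L and N separated adult crypt from adult colon (8.73% of all regions). Regions E, L and P separated geriatric villus from geriatric proximal colon (14.5%), and regions L and P geriatric crypt from it (13.9%). Region E separated adult villus (4.3%) and geriatric villus (2.85%) from juvenile duodenum. Geriatric and adult fractions were separated by none of the 11 regions. Over the catalogue 0.116% of regions had a peak in every geriatric and no adult villus library and 0.917% the reverse, and 0.34% had one in every geriatric and no adult crypt library and 0.47% the reverse. With lists of equal length within each pair, region E kept a peak in 3 of 3 adult villus and 3 of 3 geriatric villus libraries against juvenile duodenum. Against geriatric proximal colon, regions E and L kept one in 0 of 3 and region P in 2 of 3 geriatric villus libraries. Regions L and P kept one in 0 of 3 geriatric crypt libraries in that comparison. Region N likewise kept 0 of 3 adult villus libraries against adult colon, but 3 of 3 adult crypt libraries. Adult and juvenile colon were also separated by none of the 11, against 3.22% of all regions higher in adult and 0.183% higher in juvenile colon.

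The authors' deposited lists of regions that differ between 2 groups named the windows 14 times, in 8 of 28 lists. These are 0.0154% of the 90958 entries of the authors' deposited lists, and the 11 regions are 0.0129% of the 85469 regions of the catalogue. The first share counts a region once for each entry, so the shares are not of like units. The list higher in juvenile colon than in juvenile duodenum held 5 of the 14, among its 5944 entries. Region G was in the lists higher in adult villus and in geriatric villus than in juvenile duodenum. That entry of the authors' deposited lists spans chr17:29231311-29231989 and does not reach the summits at 29232425 to 29232541, on which the 3 juvenile duodenum values rest. Region G was also in the list higher in juvenile colon than in juvenile duodenum, with 2 entries. Region L was in the lists higher in adult villus and in adult crypt than in adult colon, and higher in adult villus than in juvenile duodenum. Region M was in those higher in adult colon than in adult villus and higher in juvenile colon than in juvenile duodenum. Region F was in those higher in juvenile colon than in juvenile duodenum and higher in adult colon than in adult crypt. Region O, at its place farther from region P, was higher in juvenile colon than in geriatric proximal colon and juvenile duodenum. Region P was higher in adult colon than in adult crypt. None of the authors' deposited lists of geriatric against adult or of villus against crypt named either window. These lists come from the same libraries and are not independent of the values above.

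The regions of the catalogue whose RPM moved most like region G over the 23 libraries were chr2:32379938-32380669, chr19:23215096-23216232 and chr11:103558684-103559441. Their Pearson correlations were 0.900, 0.887 and 0.884, against a median of 0.641 over all shared regions. For region P the nearest were chr4:106850742-106851695 and chr14:69902267-69903459, at 0.965 and 0.964 over 21 libraries, against a median of 0.821. For region F they were chr4:46401891-46402502, chr11:120459280-120460081 and chr11:3548634-3549828, at 0.927, 0.918 and 0.913 over 21 libraries, against a median of 0.675. All these levels share the depth of their libraries.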

How the data were processed

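ATAC-seq of 23 libraries was analysed from deposited files. Per the file headers, the authors called peaks on each library alone with MACS2 2.1.0.20150731 and no control, keeping 1 read per position, with a q cutoff of 0.05. Per the file headers, reads were shifted and extended so that the pileup centres on the cut. The extension was 68 to 210 bp. The pileup deposited for each peak is a signal not scaled to depth, and the deposited −log10 p-value, −log10 q-value and fold enrichment, a ratio to local background, are the authors' own. The submitters' processing notes name the mm9 build, Picard 2.18.27, bedtools 2.17.0, cutadapt 1.9.1, DiffBind, Bowtie2, deepTools and SAMtools 0.1.19, with no role given for any of them, so how the deposited region lists were made is unknown here.

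Peaks were merged at an overlap of 1 bp with Python 3.11.15 and pandas 2.3.3. The highest pileup per region and library was divided by the kept reads and multiplied by 1000000 (RPM). Presence was compared with two-sided Fisher's exact tests over libraries in regions with a peak in at least 2 libraries. Log2 levels were fitted with limma 3.58.1 in R 4.3.3 with 8 group means, over the 5226 regions with a peak in all libraries. Both families were adjusted over all regions by the Benjamini-Hochberg method, with calls at 0.05. Fits to regions with a peak in every library compared were added after the data had been seen, as were the summit parts, divided at gaps of 250 bp, and the contrast of age differences between duodenum and colon. A group of 3 against 3 cannot give a Fisher p under 0.1. Such pairs were therefore described by complete separation, with its share over the catalogue.

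Groups and replicate numbers came from the sample titles. The series text calls replicates biological and counts 9 mice, but which libraries share animals is not stated, so a p-value covers variation from library to library, part of which may be technical. The windows and lists were chosen with earlier results of these data known. Every region in at least 2 libraries was accounted for, and values were given for those in most libraries, those separating a pair of groups completely and those in the authors' lists. Both tests were run on simulated data with independent libraries and no shifts of whole libraries. This does not check them under such shifts or with shared animals. Marker and pathway gene lists were not used here, because they need an annotation of mm9. No column of sample values was left unused (0).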

Additional observations from a re-analysis of the deposited data

Results flagged for a closer look

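A pair of results was taken up because the adult minus juvenile difference was not the same in duodenum and colon when that difference was itself tested. At region G in the Cdkn1a window, the log2 difference of pileup over the shared-region median was larger in duodenum than in colon by 1.21 (adjusted p = 0.00292 in a fit to 8643 regions, of which 18.0% passed). It lay between 1.02 and 1.33 when each library was left out in turn. In RPM, pileup per 1000000 kept reads, it was −0.19 and did not pass. At region P in the Cdkn2a and Cdkn2b window, the difference in RPM in duodenum minus that in colon was −1.635 on the log2 scale (adjusted p = 0.0181), where 52.8% of regions passed. As a ratio to the shared regions it was −0.23 and did not pass (adjusted p = 0.607). Without adult colon 2, adult colon 3, juvenile colon 3 or juvenile duodenum 3 the adjusted p of region P was 0.051 to 0.101. Each region passed on 1 scale and not on the other, and the cause was not tested. No group had enough libraries for a test of single outlying libraries.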

How the results depend on the processing

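The scale of the level changed several results. By the ratio to shared regions, the count of called regions with a value in every library became 1 instead of 0 for later minus juvenile duodenum and 0 instead of 1 for geriatric proximal minus adult colon. It was also 0 there by fold enrichment. For adult minus juvenile colon it became 1 instead of 0 after dividing by the read extension, by fold enrichment and with the replicate number as a block, where 81.6%, 69.7% and 80.9% of the 5226 regions passed as higher in adult colon. For duodenum minus colon it was 1 instead of 0 after dividing by the read extension, where 84.5% passed as higher in duodenum. Same-numbered libraries had correlations of −0.157 to 0.359 over 38 pairs, 8 of them over 0.1. Their median was 0.028, against −0.025 for pairs of unlike number. The mean of same-numbered pairs was higher between geriatric and adult villus (0.208 against −0.102) and between geriatric and adult crypt (0.126 against −0.063). It was also higher between villus and crypt of geriatric (0.146 against −0.073) and adult duodenum (0.043 against −0.021). It was lower between juvenile duodenum and each of adult villus (−0.098 against 0.049), geriatric villus and juvenile colon. Between adult colon and adult villus or adult crypt it was lower too, and in the remaining pairs it was higher. Whether the numbers pair libraries is therefore not settled. With the block, the villus minus crypt difference in the age effect at region G was still 0.57 (adjusted p = 0.833). Leaving out 1 library at a time gave counts of 0 to 1 for adult minus juvenile colon, 1 without adult villus 3, and 0 to 1 for geriatric proximal minus adult colon, 0 without adult colon 2 or geriatric proximal colon 3. By presence, duodenum minus colon had 2 regions, and 1 to 2 with a library left out. It had 0 when a peak had to cover 50% of the region and 1 at −log10 q of at least 5. With lists of equal length it had 1 (region F, higher in colon, 1 of 15 against 7 of 8, Fisher's exact test, adjusted p = 0.0304). The share of the catalogue passing with lists of equal length is not given here, so this call is not read as particular to region F. Complete separations between geriatric proximal and adult colon were 1, but 2 when a peak had to cover 50% of the region and 1 to 3 with a library left out. They were 2 without adult colon 3 or geriatric proximal colon 3 and 3 without geriatric proximal colon 1. Fewer libraries make complete separation easier to reach, and the shares of the catalogue at these settings are not given here.

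Directions of log2 differences that turned did so as follows. By the ratio to shared regions, region G turned to −0.12 for adult minus juvenile colon, −0.26 for duodenum minus colon, 0.40 for geriatric proximal minus adult colon and 1.21 for the contrast of age differences. Region F turned to −0.17 for adult minus juvenile colon and 0.0088 for villus minus crypt, and region P to 0.013 for geriatric minus adult duodenum and 0.034 for later minus juvenile duodenum. Divided by the read extension, geriatric minus adult duodenum at region F was −0.21, and villus minus crypt was −0.050 at region G and −0.13 at region L. By fold enrichment, villus minus crypt was −0.17 at region G and −0.038 at region P. Leaving out 1 library gave −0.075 to 0.34 at region F, −0.37 to 0.0041 at region G and −0.37 to 0.27 at region P for geriatric minus adult duodenum. For villus minus crypt it gave −0.27 to 0.15 at region F and −0.037 to 0.33 at region L. For the contrast of age differences at region G in RPM it gave −0.43 to 0.048. None of the regions whose direction turned had passed the test before, except region G in geriatric proximal minus adult colon and regions F and G in adult minus juvenile colon. Presence was limited unevenly, and not in the order of depth. Adult crypt 1, with the fewest kept reads (14.4 M), had a lowest called ratio of 0.172. Geriatric proximal colon 3, with 34.0 M, had 0.563. The lowest ratio called was 0.125 to 0.176 in adult colon, under all 13 ratios of region L (0.279 to 0.842), but 0.381 and 0.563 in geriatric proximal colon.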
